A study of Homo sapiens with 6 samples.

Results

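VAMP7 is a vesicle SNARE that depends on other proteins to reach and leave the compartments where it acts, and the transcripts of 9 of these sorting partners are described here before and after VAMP7 was knocked down. The 9 genes were ANKRD27, which encodes Varp, AGFG1, which encodes Hrb, and the AP-3 adaptor subunit genes AP3D1, AP3B1, AP3B2, AP3M1, AP3M2, AP3S1 and AP3S2. Every probe set whose platform annotation names one of them was taken, which gave 21 of the 54613 probe sets tested, for 9 of the 21357 genes that the annotation names. Of the 21, 18 named 1 gene and covered 8 genes. The other 3 named AP3S2 together with the read-through gene ARPIN-AP3S2, so no reading belongs to AP3S2 alone.

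The cells were NTERA2/D1, an established line from a human testicular teratocarcinoma. They were transfected 24 h after plating and RNA was taken after 72 h of transfection. The control group received a nonspecific scrambled siRNA and the knockdown group an siRNA against human VAMP7, with 3 arrays in each group and 10% fetal bovine serum in the medium of both. The siRNA sequences, and whether 1 or several siRNAs were used, were not stated in the labels. The sample titles call them biological replicates and number them 1 to 3 per group, while the descriptions give all knockdown samples the number 1. The labels do not say what made the replicates separate (cultures, passages or days), so p-values measure only how far these samples spread.

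VAMP7 is an R-SNARE of late endosomes and lysosomes with a folded N-terminal longin domain that can close over its SNARE motif. The delta subunit of AP-3 binds this longin domain and so places VAMP7 in vesicles bound for late endosomes, lysosomes and related organelles. Hrb binds VAMP7 and links it to clathrin-mediated uptake from the plasma membrane. Varp, a Rab effector recruited to endosomes by retromer, keeps VAMP7 closed. AP-3 itself is a tetramer of delta, beta, mu and sigma subunits, in which beta, mu and sigma each come in more than 1 form. The beta form encoded by AP3B2 and the mu form encoded by AP3M2 are the ones known from neurons, and loss of the widely expressed AP3B1 or AP3D1 causes forms of Hermansky-Pudlak syndrome.

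VAMP7 fell in the knockdown while none of the 21 probe sets of its sorting partners passed the test. The VAMP7 probe set read 2487, 2617 and 2741 intensity units on the control arrays and 136.8, 175.4 and 148.6 on the knockdown arrays. The groups were far apart, with 5.87% of the control mean left in the knockdown (log2 fold change -3.71, SE 0.11, adjusted p = 0.000362 in limma). Values here are the deposited linear intensities, and fold changes were taken after adding an offset of 50 and converting to log2, so differences of dim probe sets appear smaller than they are. A probe set was called where limma's p, adjusted by Benjamini-Hochberg over all 54613 probe sets, was under 0.05. By this rule 1 probe set was called lower, the VAMP7 one (0.00183% of those tested), and 0 were called higher (0%). At an unadjusted p under 0.05 there were 3613 probe sets (6.62%), and 0 of the 21 were among them.

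The arrays had nearly equal trimmed means, and their median intensities ran from 58.71 to 67.39. Knockdown replicate 1 stood apart on the first principal component (27.2% of the variance), and its mean correlation with the other arrays was 0.9837 against 0.9856 to 0.987 for the rest. Differences that move with this array are therefore given with and without it. Of 10 measured markers of pluripotent cells, 0 lay below the array median on all arrays, and none passed. NANOG, the one of smallest p, averaged 4839 ± 457 (SD, n = 3) in control against 3968 ± 328 (SD, n = 3) in knockdown. Its log2 fold change was -0.28 (adjusted p = 0.742 in limma over genes), or -0.22 without knockdown replicate 1, its lowest array. The groups did not overlap, but the closest readings were 4314 in control and 4283 in knockdown. This held for 1 of the 10 markers, and for 13% of all genes. Among markers of other cell types, 3 of 8 fibroblast genes, 3 of 5 melanocyte genes and 1 of 11 neuronal genes lay below the array median on all arrays. POU5F1 had no probe set that named it alone.

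**Figure D1:**
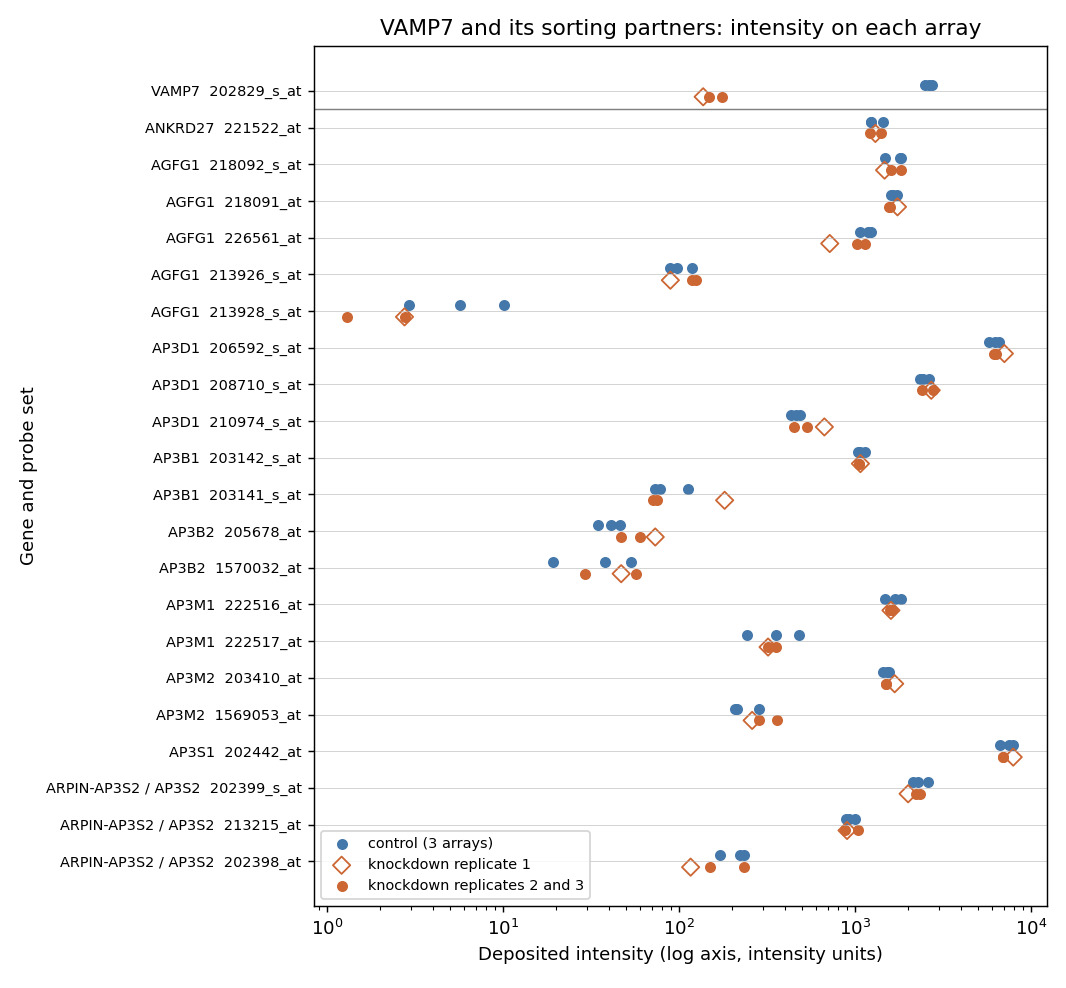
Deposited intensity (log axis) of the VAMP7 probe set, above the grey line, and of the 21 probe sets of its sorting partners on each array. Blue points are the 3 control arrays, filled orange points knockdown replicates 2 and 3, and open diamonds knockdown replicate 1; the VAMP7 groups are far apart, while those of the partners overlap on 19 of 21 probe sets.

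Varp was measured by 1 probe set, and its readings were nearly the same in both groups. ANKRD27 (probe set 221522_at) read 1227, 1229 and 1442 in control and 1300, 1214 and 1395 in knockdown. The highest array was a control and the lowest a knockdown, and the groups overlapped across most of their range. The means were 1299 ± 124 and 1303 ± 90.1 (SD, n = 3), a log2 fold change of 0.01 (SE 0.11, adjusted p = 0.997 in limma). Its 95% interval ran from -0.26 to 0.28, or 0.832-fold to 1.21-fold. The sign of so small a difference depended on single arrays: it was -0.032 without control replicate 1, -0.031 without control replicate 2 and -0.042 without knockdown replicate 3.

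Hrb was measured by 5 probe sets, 4 with a log2 fold change below 0 and 1 above, and none passed. The brightest AGFG1 probe set (218092_s_at) read 1817, 1477 and 1802 in control and 1466, 1812 and 1594 in knockdown. Control replicate 2 read close to the lowest knockdown array, and the log2 fold change was -0.06 (SE 0.13, adjusted p = 0.959 in limma). Its sign turned without knockdown replicate 1, to 0.01. Another probe set, 218091_at, read 1733, 1594 and 1629 against 1736, 1569 and 1549, a log2 fold change of -0.03 (SE 0.10). This was -0.08 without knockdown replicate 1. These 2 probe sets disagreed about knockdown replicate 1, which was the lowest array on the first and the highest on the second.

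On the log2 scale used, the AGFG1 value farthest below 0 came from 226561_at, which read 1182, 1068 and 1222 in control and 715.8, 1016 and 1141 in knockdown. This was a log2 fold change of -0.28 (SE 0.18, 95% interval -0.70 to 0.13; adjusted p = 0.826 in limma), and knockdown replicate 1 was much the lowest array. Without that array the log2 fold change was -0.10 (SE 0.12), a much smaller difference. The remaining AGFG1 probe sets were dim. Probe set 213926_s_at read between 88.25 and 124.1 on the 6 arrays, with a log2 fold change of 0.08 (0.18 without knockdown replicate 1). On 213928_s_at, which lay below the median of every array, control gave 10.06, 5.727 and 2.923 and knockdown 2.756, 1.307 and 2.789. Its groups did not overlap, but the gap between them was the small step from 2.789 to 2.923, and its log2 fold change on the offset scale was -0.10 (adjusted p = 0.887 in limma).

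AP3D1, the delta subunit that contacts VAMP7, had 3 probe sets, all with a log2 fold change above 0 and none past the threshold. The brightest (206592_s_at) read 5721, 6233 and 6560 in control and 7021, 6144 and 6262 in knockdown, and knockdown replicate 1 was the highest array. The groups differed by a log2 fold change of 0.07 (SE 0.11, 95% interval -0.19 to 0.33; adjusted p = 0.938 in limma). It was 0.01 without knockdown replicate 1. The second probe set (208710_s_at) read 2637, 2318 and 2420 against 2698, 2387 and 2762, with a log2 fold change of 0.09 (SE 0.11). Here a control array, replicate 1, exceeded one of the knockdown arrays, and the value without knockdown replicate 1 was 0.06.

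The dimmest AP3D1 probe set (210974_s_at) had the largest log2 fold change of the AP3D1 probe sets. It read 462.8, 484.1 and 433.4 in control and 667.3, 446.4 and 534.4 in knockdown, a log2 fold change of 0.22 (SE 0.15, adjusted p = 0.848 in limma). Knockdown replicate 1 was again the highest array, and knockdown replicate 2 lay among the controls. Without knockdown replicate 1 the log2 fold change was 0.08 (SE 0.12).

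The beta subunits differed in how tightly they were measured. AP3B1, the widely expressed form, read 1137, 1038 and 1057 in control and 1069, 1050 and 1047 in knockdown on its brightest probe set (203142_s_at). The knockdown arrays all fell inside the control range, with a log2 fold change of -0.03 (SE 0.09, 95% interval -0.25 to 0.20, adjusted p = 0.977 in limma). A dim AP3B1 probe set (203141_s_at) read 111.9, 77.64 and 72.8 against 181.1, 71.45 and 75.08. Its log2 fold change of 0.16 (SE 0.26) came with 1 high array, knockdown replicate 1, and was -0.15 (SE 0.15) without it.

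AP3B2, the neuronal beta form, had the smallest p of the 21 probe sets, on a dim probe set (205678_at). It read 34.57, 41.04 and 46.21 in control and 73.11, 46.51 and 60.22 in knockdown. All knockdown arrays lay above all controls, though knockdown replicate 2 did so by only 0.3 intensity units, and 5 of the 6 readings were below the median of their array. The means were 40.61 ± 5.83 and 59.95 ± 13.3 (SD, n = 3), a log2 fold change of 0.27 (SE 0.13, 95% interval -0.02 to 0.57). This did not pass (unadjusted p = 0.065, adjusted p = 0.767 in limma), and it was 0.19 (SE 0.12) without knockdown replicate 1. A second AP3B2 probe set (1570032_at) read 53.28, 19.19 and 38.13 against 46.83, 29.26 and 56.75, so its groups overlapped (log2 fold change 0.13, SE 0.18), and it turned to -0.03 without control replicate 2. Of 11 neuronal markers, 0 passed, 5 lay above 0 and 6 below, and their summed intensity was 22710 to 25680 on the control arrays and 22710 to 24790 on the knockdown arrays. TUBB3 alone made up 60.1% of that sum, so it says little of the dimmer markers. The marker of smallest p, the synaptic vesicle protein gene SYP, lay below the median of every array and was dimmer than AP3B2. Its groups did not overlap either, at 10.77, 3.525 and 9.081 in control and 18.93, 20.7 and 23.78 in knockdown. The log2 fold change of SYP was 0.30 (adjusted p = 0.684 in limma over genes), or 0.32 without knockdown replicate 1. Groups did not overlap for 2 of the 11 markers, where this held for 13% of all genes. The other was NEFL, which averaged 2565 ± 49.4 (SD, n = 3) in control against 2280 ± 131 (SD, n = 3) in knockdown. It went the other way, at a log2 fold change of -0.17, or -0.21 without knockdown replicate 1. The part of neuronal transcripts in the AP3B2 readings was not tested.

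Neither mu subunit passed on any of its probe sets. AP3M1, the widely expressed form, read 1690, 1477 and 1816 in control and 1593, 1620 and 1574 in knockdown (222516_at). The knockdown arrays lay close together inside the wider control range, with a log2 fold change of -0.05 (SE 0.11, adjusted p = 0.96 in limma). Its second probe set (222517_at) showed the same arrangement, at 355.8, 243.2 and 481.9 against 319.6, 319.3 and 356.3 (log2 fold change -0.06, SE 0.21). Both signs rested on control replicate 3, the highest array on each, and were 0.014 and 0.14 without it.

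AP3M2, the neuronal mu form, read 1511, 1444 and 1559 in control and 1673, 1490 and 1485 in knockdown on its brighter probe set (203410_at). Only knockdown replicate 1 exceeded the controls, and the log2 fold change of 0.04 (SE 0.10, adjusted p = 0.967 in limma) was -0.02 without it. The dimmer AP3M2 probe set (1569053_at) gave the highest log2 fold change of the 21. It read 212.8, 285.2 and 206.8 in control and 259.5, 358.5 and 284.2 in knockdown, a log2 fold change of 0.30 (SE 0.16, 95% interval -0.07 to 0.67, adjusted p = 0.796 in limma). Control replicate 2 lay above 2 of the knockdown arrays, so the groups overlapped. This was the exception among the larger differences in that it was greater, at 0.39 (SE 0.17), without knockdown replicate 1.

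The sigma subunit AP3S1 read 6673, 7839 and 7437 in control and 7880, 6867 and 6934 in knockdown on its 1 probe set (202442_at). Both groups spanned nearly the same range, with a log2 fold change of -0.02 (SE 0.11, 95% interval -0.29 to 0.25; adjusted p = 0.989 in limma). Its sign turned without control replicate 2 (0.034), knockdown replicate 2 (0.018) or knockdown replicate 3 (0.011). Without knockdown replicate 1 the log2 fold change was -0.08. The probe sets shared by AP3S2 and ARPIN-AP3S2 cannot tell the sigma transcript from the read-through transcript. The brightest of them (202399_s_at) read 2263, 2138 and 2575 against 1994, 2330 and 2206, a log2 fold change of -0.09 (SE 0.12). This was -0.03 without knockdown replicate 1. The next (213215_at) was at 0.01 (SE 0.11). The dimmest (202398_at) read 233.9, 171 and 220.9 in control and 116.1, 149.9 and 231.9 in knockdown, a log2 fold change of -0.29 (SE 0.21, adjusted p = 0.858 in limma). On that probe set 1 knockdown array was near the top of the control range and knockdown replicate 1 was the lowest, and the log2 fold change without knockdown replicate 1 was -0.12 (SE 0.20).

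**Figure D2:**
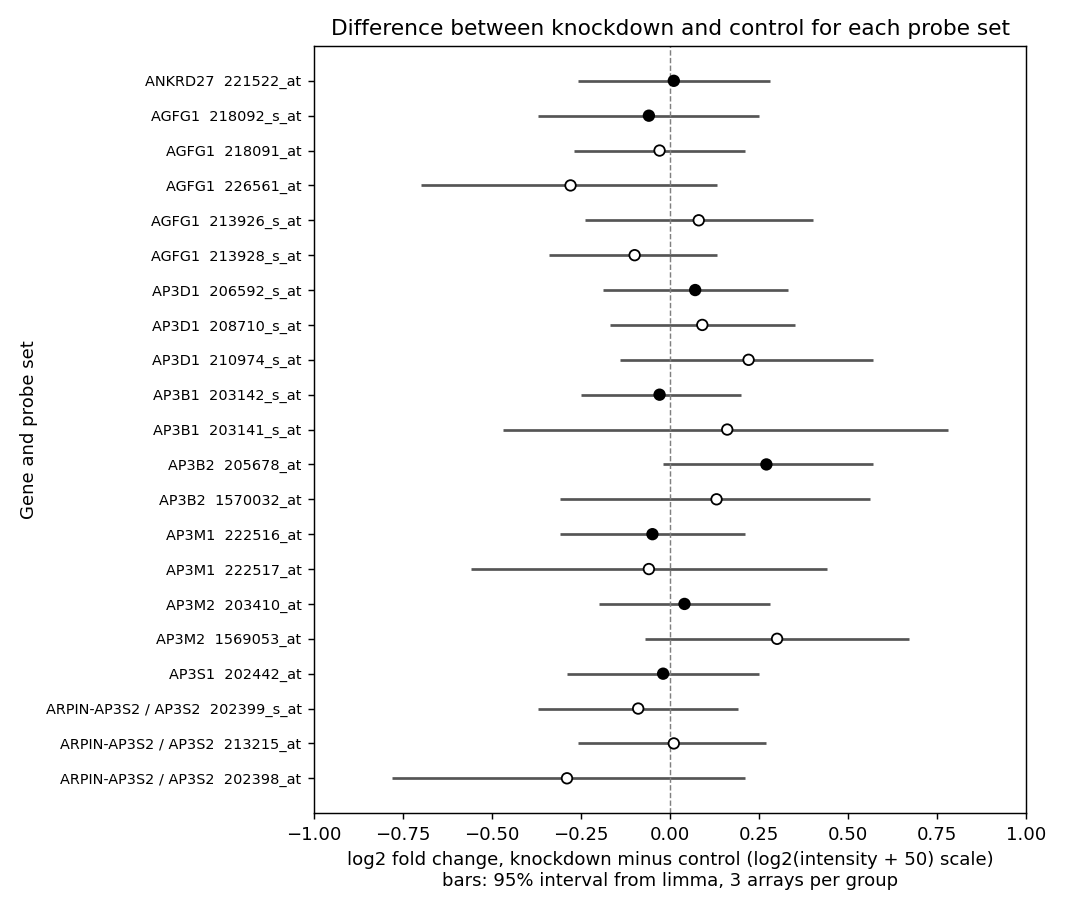
Log2 fold change (knockdown minus control, on the log2(intensity + 50) scale) of each of the 21 probe sets with its 95% limma interval. Filled points are the brightest probe set of each of the 8 genes with a probe set of their own and open points the others; every interval includes 0, and the widest is that of AP3B1 203141_s_at, from -0.47 to 0.78.

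Over the 21 probe sets, 11 had a log2 fold change above 0 and 10 below (52.4% above, against 53.8% of all probe sets). The median was 0.01, against 0.02 over all probe sets, and the values ran from -0.29 to 0.30. The 3-array groups did not overlap on 2 of the 21, AP3B2 205678_at and AGFG1 213928_s_at. This was 9.52% of them, against 12.4% of all probe sets, and both were dim. All 3 knockdown arrays were above all controls on 1 of the 21 (7.28% of all probe sets) and below them on 1 (5.15%). Calls rest on limma, because permuting 3 arrays against 3 yields no exact two-sided p below 0.1.

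Each interval limits the size of a difference only for its own probe set. For the 7 genes other than AP3B2 with a probe set of their own, the brightest probe sets had mean intensities of 1066 to 7272 and log2 fold changes of -0.06 to 0.07. The lowest bound of their 95% intervals was -0.37, for AGFG1, and the highest 0.33, for AP3D1. A fall of more than 22.9% or a rise of more than 25.5% in intensity + 50 thus lay outside each of those intervals. Smaller differences could not be resolved with 3 arrays per group. For AP3B2 the interval reached a rise of 48.5% in intensity + 50. At so dim a probe set the same interval allows a larger percent rise in intensity itself. Some other probe sets of the same genes had wider intervals, which reached a fall of 38.4% for AGFG1 and a rise of 48.8% for AP3D1. Over all 21 probe sets the intervals reached a fall of 41.9% and a rise of 71.9% in intensity + 50. When 1 probe set per gene was tested over 19775 genes, 0 of the 8 genes passed (0.00506% of all genes did, VAMP7 alone), and 0 of the 8 had an unadjusted p under 0.05 (6.66% of all genes). The adjusted p of the 8 ran from 0.751 for AP3B2 to 0.997 for ANKRD27 in that limma fit.

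Knockdown replicate 1 was the array farthest from the median of the 6 on 10 of the 21 probe sets, and on 26.1% of all probe sets. It was the highest array on 7 of the 21 and the lowest on 4, so it deviated in both directions. Without it, 10 probe sets lay above 0 and 11 below, the median was -0.02, and 0 passed. Its part in the single differences was not tested beyond these values.

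**Figure D3:**
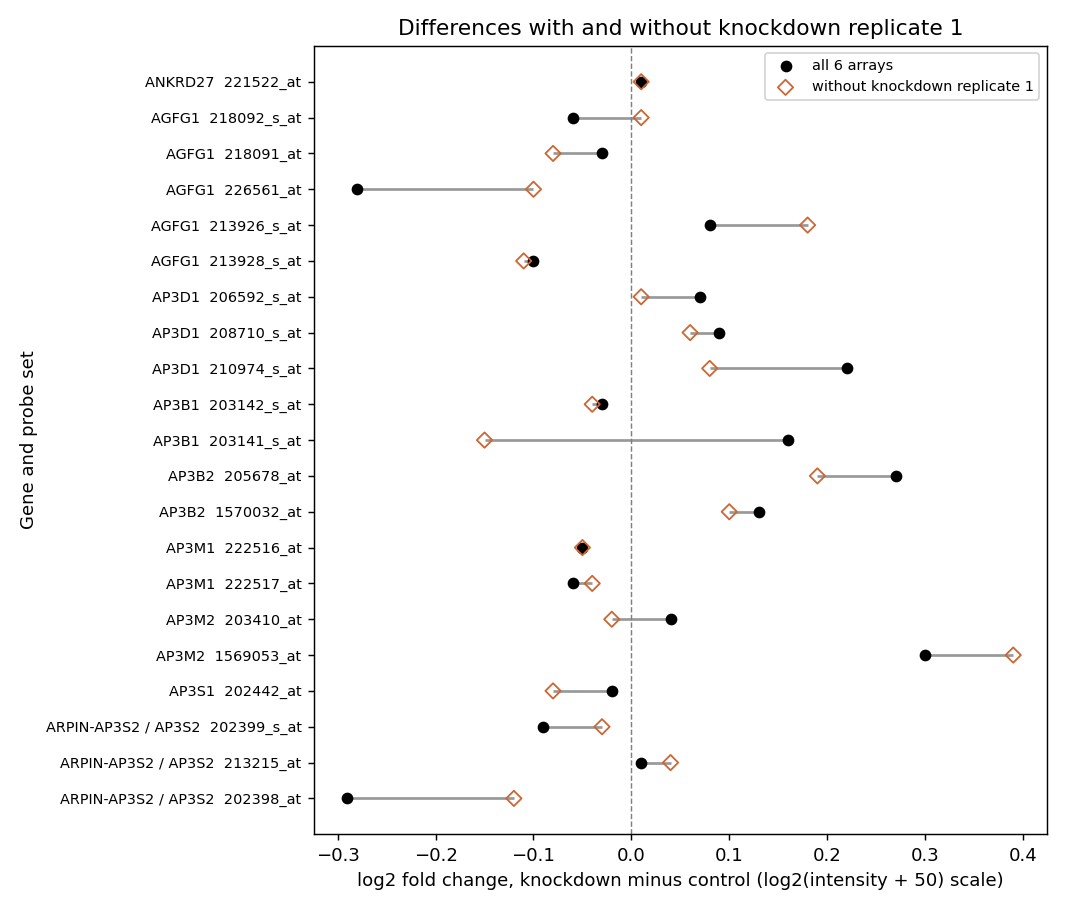
Log2 fold change of each probe set with all 6 arrays (filled) and without knockdown replicate 1 (open diamonds), on the log2(intensity + 50) scale. The lines show the shift: from -0.28 to -0.10 for AGFG1 226561_at, from 0.22 to 0.08 for AP3D1 210974_s_at, from 0.16 to -0.15 for AP3B1 203141_s_at, and from 0.30 to 0.39 for AP3M2 1569053_at.

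Whether the alternative forms of a subunit shifted relative to each other was compared within each array, as the difference of their log2 values. The neuronal beta form AP3B2 minus AP3B1 averaged -3.64 ± 0.15 (SD, n = 3) in control against -3.34 ± 0.16 (SD, n = 3) in knockdown, a shift of 0.30. All 3 knockdown arrays (-3.18, -3.51 and -3.31) lay above the 3 control arrays (-3.81, -3.58 and -3.52), the closest by 0.01. The exact two-sided permutation p was 0.1, the smallest 3 arrays against 3 can give, and 0.3 when adjusted over the 3 pairs compared. Most of this shift was that of the dim AP3B2 probe set, and it was 0.23 without knockdown replicate 1. AP3M2 minus AP3M1 went from -0.13 ± 0.09 to -0.04 ± 0.10, a shift of 0.09 (exact permutation p = 0.4, adjusted 0.6), or 0.03 without knockdown replicate 1. The shared AP3S2 probe set minus AP3S1 shifted by -0.07, which is within its spread of 0.19 and 0.22 (exact permutation p = 0.6, adjusted 0.6). That shift turned to 0.05 without knockdown replicate 1, the lowest array at -1.96. The level of these ratios carries no meaning across probe sets, and only the shift between groups was compared.

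The genes that AP-3, Varp and Hrb work with were examined from a list of 25, of which 24 were measured. It holds the BLOC complexes, which act with AP-3 in making lysosome-related organelles, the Varp partners RAB21, RAB32, RAB38 and GOLGA4, subunits of HOPS, and AGFG2, the close relative of Hrb. None passed over all genes; 13 lay above 0 and 11 below, with a median of 0.00, the same as over all genes (50.8% of all genes above 0). The members of smallest p were ARF1, the GTPase that recruits AP-3 to membranes, and BLOC1S1, a BLOC-1 subunit. On the brightest probe set that named it alone, ARF1 averaged 129.1 ± 13.6 (SD, n = 3) in control against 180.1 ± 40.4 (SD, n = 3) in knockdown. The log2 fold change of ARF1 was 0.35 (adjusted p = 0.745 in limma), or 0.30 without knockdown replicate 1. Its groups overlapped, with control replicate 3 at 144.6 and knockdown replicate 2 at 135.1. Probe sets that name ARF1 together with another gene, if any, were not used. BLOC1S1 read 1827, 1805 and 1847 in control and 1498, 1531 and 1695 in knockdown, so its groups did not overlap. Its log2 fold change was -0.21 (SE 0.09, adjusted p = 0.751 in limma), and -0.18 without knockdown replicate 1. Groups did not overlap for 4 of the 24, where this held for 13% of all genes.

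Proteins that AP-3 carries were listed as 11 cargo genes, of which 4 lay above 0 and 7 below, with a median of -0.03. None passed. LAMP2, a lysosomal membrane glycoprotein, had the smallest p and averaged 4493 ± 710 (SD, n = 3) in control against 3539 ± 859 (SD, n = 3) in knockdown, a log2 fold change of -0.36 (adjusted p = 0.802 in limma). It was at -0.19 without knockdown replicate 1. TYR, the melanosomal tyrosinase, was next at -0.15, and its readings of 26.64 to 48.34 were dim on all arrays. In all, 4 of the 11 (TYR, TYRP1, SLC30A3 and CD1B) lay below the array median on every array.

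The other adaptor complexes and the SNAREs of the same routes serve as the nearest comparison. Of 20 measured subunits of AP-1, AP-2, AP-4 and AP-5, 7 lay above 0 and 13 below (median -0.06), and none passed. Groups did not overlap for 2 of the 20, against 13% of all genes. Those of smallest p were AP5B1, at 0.36 (0.20 without knockdown replicate 1), and AP1G2, a gamma subunit of AP-1, at 0.41 (SE 0.24). AP1G2 was at 0.32 without knockdown replicate 1. AP5B1 was dim, below the array median on 4 arrays, and the groups of both genes overlapped. Of 18 SNAREs, 8 lay above 0 and 10 below (median -0.03), and none passed. Groups did not overlap for 4 of the 18, against 13% of all genes. An unadjusted p under 0.05 in limma was reached by 2 of the 18, against 6.66% of all genes. VAMP8, another endosomal R-SNARE, was at -0.49 (SE 0.12, adjusted p = 0.565 in limma), or -0.55 without knockdown replicate 1. STX16, a Golgi syntaxin, was at 0.21, and for both genes the groups did not overlap. Of the 8 sorting partner genes, 7 lay between -0.06 and 0.07 and AP3B2 at 0.27, and no test of a difference between lists was made.

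**Figure D4:**
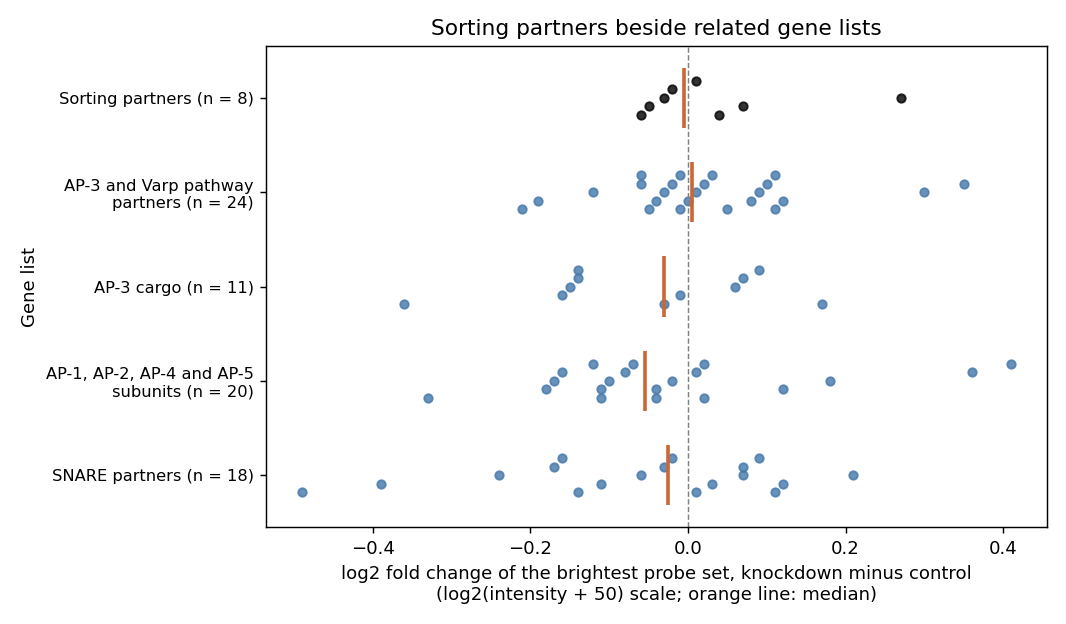
Log2 fold change (knockdown minus control, on the log2(intensity + 50) scale) of the brightest probe set of each gene, for the 8 sorting partner genes with a probe set of their own and for 4 related lists. Orange lines are medians; 7 of the 8 partners lie between -0.06 and 0.07, and AP3B2 is at 0.27.

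The genes whose readings followed those of a VAMP7 binder most closely over the 6 arrays were sought among 9558 others of at least median signal. For ANKRD27 they were TCFL5 (Pearson r = 0.9806), EBPL (0.9802) and FAAP20 (0.9774). For AGFG1 they were WDR44 (r = 0.9967), IFT46 (0.9873) and STAM2 (0.9836), and for AP3D1 ASTN1 (r = 0.9886), FEM1B (0.9871) and CCNY (0.9846). Over the same 9558 genes r exceeded 0.9 for 27 genes with ANKRD27, 68 with AGFG1 and 181 with AP3D1. With only 6 points, r this high can arise between unrelated genes, and how many would reach it so was not tested. On the probe sets used for AGFG1 and AP3D1, knockdown replicate 1 was the array farthest from the median. For ANKRD27 it was control replicate 3. The points share the arrays and their scaling, so these are descriptions and carry no p.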

How the data were processed

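The authors deposited linear intensities in 1 table of 54675 probe sets by 6 arrays. Each array's trimmed mean, without 2% of values at each end, was 500.07. RMA is named, with no version, per the submitters' processing notes, whereas the deposited intensities are linear and their medians differ; the sources used here do not give the software or background correction behind them. There were no detection calls, and precision is limited by the number of arrays. The 62 array controls were left out. Gene names came from the platform annotation, with symbols updated through RefSeq (GRCh38.p14, names only; 41037 of 41091 single-gene probe sets matched). An offset of 50 was added before log2. All probe sets were fitted in limma 3.58.1 (R 4.3.3, lmFit and eBayes), knockdown minus control, with Benjamini-Hochberg adjustment; no filter was set. Genes in lists were taken by their brightest single-gene probe set and adjusted over 19775 genes. Named were VAMP7, all members, the 2 list genes of smallest p and the 3 genes most alike each VAMP7 binder, uncharacterised loci passed over. Members and lists were chosen with earlier results of these data known. The code was tested on simulated data. Deviations of same-numbered arrays correlated between -0.0165 and 0.00694, so the replicate numbers were not used as pairs. Alternatives covered offsets, scaling, a filter, the unit tested, eBayes options, array weights, the replicate number and each array left out.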

Additional observations from a re-analysis of the deposited data

How the results depend on the processing

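No partner probe set passed in any alternative that gave it a value, 14 to 17 alternatives each (lowest adjusted p = 0.649 in limma), and VAMP7 passed in all 17 alternatives, at log2 fold changes of -3.96 to -3.42 (adjusted p = 1.28e-06 to 0.0295). When the probe sets of each gene were averaged, C19orf73 (log2 fold change 0.98, adjusted p = 0.0375 in limma) was called as well, making 2. Of the 21 partner differences, 10 kept their sign wherever they were tried. Median centring turned AP3M2 203410_at to -0.0031, ANKRD27 to -0.036 and the shared AP3S2 probe set 213215_at to -0.035. Quantile normalization turned AP3S1 to 0.0016 and 213215_at to -0.0054, and the mean of its probe sets turned AP3B1 to 0.064. With each array left out in turn, the ranges of those that turned were -0.042 to 0.081 for ANKRD27, -0.08 to 0.0039 for AGFG1 218091_at and -0.16 to 0.0074 for AGFG1 218092_s_at. They were -0.053 to 0.0098 for AP3B1 203142_s_at, -0.15 to 0.32 for 203141_s_at and -0.028 to 0.26 for AP3B2 1570032_at. For AP3M1 they were -0.13 to 0.014 (222516_at) and -0.28 to 0.14 (222517_at), for AP3M2 203410_at -0.016 to 0.068, for AP3S1 -0.082 to 0.034 and for 213215_at -0.065 to 0.054. The median over the partner probe sets ran from -0.031 to 0.064 with each array left out and was -0.036 with median centring. With each array left out, the shifts between subunit forms ran from 0.22 to 0.39 (AP3B2 minus AP3B1), 0.034 to 0.14 (AP3M2 minus AP3M1) and -0.18 to 0.049 (shared AP3S2 minus AP3S1). The cause of these turns was not tested. The replicate number as a block left VAMP7 at -3.71 (adjusted p = 0.0295 in limma) as the 1 call and the partners at adjusted p = 0.791 to 0.997; the same-numbered arrays share only a number. Counts of list genes above 0 stayed within 1.5 times in the 9 settings tried for them, which, like the shifts with an array left out, were added after the data had been seen. Dim probe sets are limited by their signal, and the offset compresses their differences.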
